A study of Mus musculus with 20 samples.

Results

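Transforming growth factor beta (TGF-beta) signalling was followed in the mouse corneal epithelium with age through 10 genes, all found by symbol among the 24552 genes of the table: the ligands Tgfb1, Tgfb2 and Tgfb3, the receptors Tgfbr1 and Tgfbr2, the signal carriers Smad2 and Smad3, the inhibitors Smad7 and Skil, and the matrix gene Tgfbi. The corneal epithelium was taken by debridement from naive female wild-type C57BL/6J mice of 4 ages, with both eyes of 1 animal in each library and 5 libraries at each age. The labels give the ages as 2 to 3 months (the young group), 12 to 13, 18 to 19 and 24 to 25 months. Mice of the study were bought from a supplier, aged in house or received from an aging institute. The labels do not give the source of each animal, so source and age cannot be told apart. RNA was read from its 3′ end. Between 6699383 and 10762360 reads per library fell on genes, with a median of 8731333.

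TGF-beta ligands are secreted in a latent complex and, once released, bind the type II receptor, which activates the type I receptor. The type I receptor phosphorylates Smad2 and Smad3, which enter the nucleus with Smad4 and change transcription. Smad7 blocks the receptor, and Skil (also called SnoN) holds Smad complexes in a repressed state; both are themselves induced by the pathway, which makes them its feedback arm. Tgfbi was named for its induction by TGF-beta. Its secreted protein binds collagen and integrins, is abundant in the cornea and is the protein that accumulates in several inherited corneal dystrophies. In the cornea the pathway is known for its part in epithelial migration and stromal scarring after injury.

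The libraries carried the markers of the labelled tissue. The summed normalized counts of 10 corneal epithelial markers, among them the keratin Krt12, lay between 614200 and 800300 in the young libraries and between 665400 and 750300 at 24 months. Of the 10, 0 were called at 24 months, where 0.78% of all genes were called. Other cells were also represented. The summed level of 15 markers of stromal keratocytes, the collagen-making cells under the epithelium, ran from 1895 to 4953 in the young libraries, from 780.6 to 1722 at 12 months, from 697.1 to 1443 at 18 months and from 362.7 to 1176 at 24 months. Each aged library was thus below each young one. The sum is weighted to its most counted markers Dcn, Col1a2 and Col1a1. Their young means were 1022, 1204 and 928.5, where the mean sum was 3789. At 24 months their means were 287.0, 138.4 and 73.07, where the mean sum was 615.9. Another of the 15 markers, Ptgds, had 0 reads in every young and every 24-month library and reached 532.5 normalized counts in 1 library at 12 months. Col1a1 and Col1a2 are also among the pathway target genes given below. The defining keratocyte gene Kera had a mean of 30.5 in the young libraries (14.8 to 42.8), 2.84 at 12 months (0 to 5.36), 28.7 at 18 months (0 to 91.5) and 9.11 at 24 months (0 to 27.3), so its 18-month range reached above the young one. Of 4 conjunctival markers tested, 2 were called lower at 12 and 18 months (Krt4 and Krt19) and 1 at 24 months (Krt4). The share of all genes called was 0.532%, 0.673% and 0.78% at the 3 ages. Krt13 and Muc4 were not called, and Muc5ac and Spdef were too low to be tested. At 24 months 0 of the 7 tested leukocyte markers were called. Of these 7, 6 were lower (2 at an unadjusted limma p under 0.05), with a median log2 change of -0.92. The mean summed leukocyte level was 433.7 in young and 292.1 at 24 months. The sum of 5 melanocyte markers ran from 60.71 to 111.7 in the young libraries and from 75.37 to 1049 at 12 months, where the median was 93.39. In bulk tissue, fewer cells of a type and less RNA per cell cannot be told apart.

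Tgfbi, which encodes a secreted matrix protein, differed little between ages. The gene lies at chr13:56609586-56639359 in GRCm38. In normalized counts, the reads of a library divided by its size factor, the 5 young libraries had 4054, 4896, 3717, 4747 and 4623, and the 12-month libraries had 3380, 3921, 3942, 4187 and 4477. The 18-month libraries had 3925, 4465, 4336, 3533 and 4683, and the 24-month libraries had 4512, 4453, 4069, 4154 and 3838. The 4 ages overlapped throughout, with 2 of the 15 aged libraries below every young library and 0 above. The mean of the young group was 4407 ± 500.6 (SD, n = 5), and those of the 12-, 18- and 24-month groups were 3981 ± 404.6, 4188 ± 458.7 and 4205 ± 279.1. The log2 change from young was -0.15 at 12 months (95% interval -0.36 to 0.07), -0.07 at 18 months (-0.29 to 0.14) and -0.06 at 24 months (-0.27 to 0.15), with a limma adjusted p of 0.899 for the last. The two-sided exact permutation test of 24 months against young gave p = 0.4841, where 0.007937 is the smallest p that 5 libraries against 5 allow. The 95% interval at 24 months reached down to a fall of 0.27 on the log2 scale, and a p above the threshold does not show equal levels.

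The narrow spread of Tgfbi set these intervals. Its SD within ages was 0.15 on the log2 scale, at percentile 2.985 of the 11288 genes tested, for which the median SD was 0.39. Tgfbi averaged 4196 normalized counts, while genes down to a mean of 10 were tested. The percentile was not taken among genes of similar count. Counting alone would give Tgfbi a coefficient of variation of 1.523%, against 9.777% observed within ages. Over the 20 libraries, log2 Tgfbi and the log2 summed keratocyte level had Pearson's r = 0.036 (permutation p = 0.8798) and Spearman's rho = 0.066 (permutation p = 0.7838), and r = -0.023 without the 2 farthest libraries. As deviations from the age means, r was -0.362 (permutation p = 0.1338) and rho was -0.286 (permutation p = 0.2546), with r = -0.231 without the 2 farthest. Adjusted over these 2 relations, p was 0.8798 and 0.2676.

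**Figure D1:**
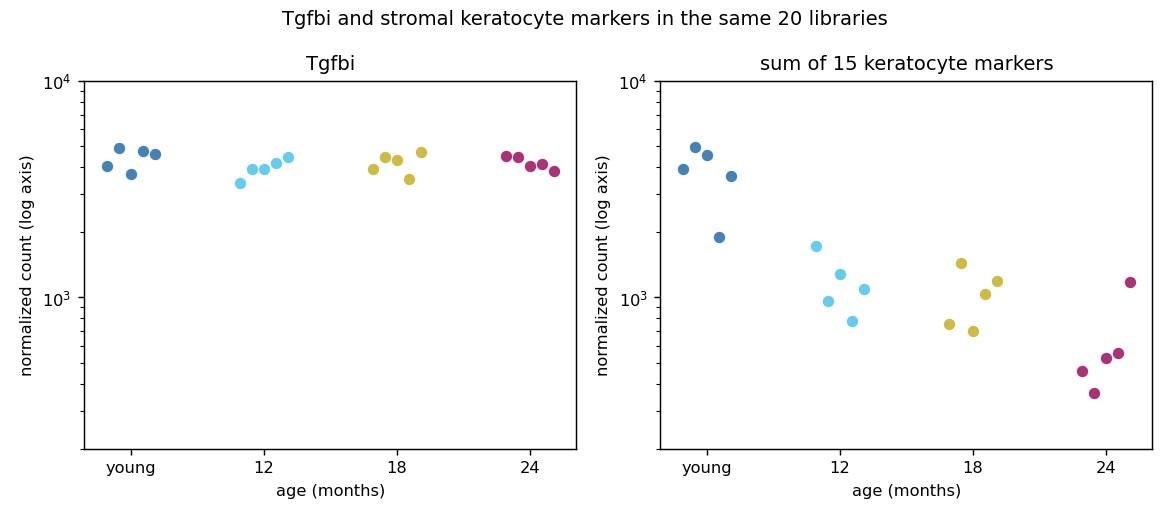
Normalized counts of Tgfbi (left) and of 15 summed stromal keratocyte markers (right) in each of the 20 libraries, by age in months, on log axes of the same range. Tgfbi stays between 3380 and 4896, while every aged library lies below the lowest young keratocyte sum of 1895. Dcn, Col1a2 and Col1a1 have the highest means of the 15 markers at each age.

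The 5 genes whose log2 values followed Tgfbi most closely over the 20 libraries, among 11287 others, were Scamp4 (r = 0.81), Oxct1 (r = 0.749), Scand1 (r = 0.744), H2-Ab1 (r = 0.732) and Trim26 (r = 0.729). Scamp4 is a vesicle membrane protein, Oxct1 an enzyme of ketone use and H2-Ab1 a chain of an MHC class II molecule. These are descriptions over shared libraries, chosen as the highest of many.

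The upstream sequence of Tgfbi is shown because TGF-beta induction gave the gene its name. RefSeq promoters were matched for 6 of the 10 genes, with 7 promoters in all. The 250 bases before the annotated start, chr13:56609336-56609585 on the plus strand of GRCm38.p6, were searched on both strands for CAGAC, the 5 letters of the Smad-binding element, which read GTCTG on the other strand. Matches are in capitals.
Tgfbi upstream: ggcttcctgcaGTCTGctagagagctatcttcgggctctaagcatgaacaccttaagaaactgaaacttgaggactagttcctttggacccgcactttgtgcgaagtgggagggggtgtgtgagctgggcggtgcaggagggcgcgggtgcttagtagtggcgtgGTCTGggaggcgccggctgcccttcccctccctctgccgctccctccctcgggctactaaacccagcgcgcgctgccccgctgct
The window held 2 matches. At least 1 match was present in 4 of the 7 promoters, and in 42.19% of the 32851 promoters in the table. A match is a description of letters and not a site of binding.

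Skil, a repressor of Smad complexes, was the only gene of the 9 tested that passed the test in any comparison. It lies at chr3:31095058-31122923. The young libraries had 227, 206, 283, 271 and 304 normalized counts, and the 12-month libraries had 286, 401, 449, 500 and 487. At 18 months the values were 359, 324, 339, 379 and 391, and at 24 months they were 325, 280, 377, 392 and 395. Skil was above every young library in 4 of 5 libraries at 12 months, in 5 of 5 at 18 months and in 4 of 5 at 24 months, and so in 13 of 15 aged libraries. The group means, from young to 24 months, were 258.2 ± 40.44, 424.6 ± 86.53, 358.2 ± 27.57 and 353.8 ± 50.11 (SD, n = 5 each).

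A gene was called when its adjusted p was at most 0.05 and its change at least 1.2-fold. At 12 months Skil rose 1.627-fold, a log2 change of 0.70 (SE 0.16, 95% interval 0.37 to 1.03, limma adjusted p = 0.03539). That was 1 call among the 9 genes tested, in a comparison where 0.532% of all genes were called. The log2 change was 0.48 at 18 months (0.15 to 0.81, limma adjusted p = 0.3164) and 0.46 at 24 months (0.13 to 0.79, limma adjusted p = 0.2619), neither of them a call. The exact permutation test of 24 months against young gave p = 0.02381, two-sided and not adjusted. From 12 to 24 months the log2 change was -0.25 (-0.58 to 0.08, limma adjusted p = 0.4818), so a difference between the early and the late change was not shown. These comparisons share the young libraries.

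With all 15 aged libraries as 1 group, a comparison of the study that was added here after the values had been seen, Skil was 1.461-fold higher than in the young group. Its log2 change was 0.55 (SE 0.13, 95% interval 0.27 to 0.82) with a limma adjusted p of 0.03752, again 1 call among 9, where 1.01% of all genes were called. Both calls sit close to the threshold. The 12-month call was kept in 12 of 20 fits that left out 1 library and lost in 8: without young replicate 1, 2, 3 or 4 (adjusted p = 0.05723, 0.135, 0.05102 and 0.06635) and without 12-month replicate 2, 3, 4 or 5 (0.07227, 0.09596, 0.1234 and 0.1091). It was also lost with voom (0.06175) and in a fit of those 2 ages alone (0.1802). The call in all aged libraries was kept in 9 of 20 such fits and with voom (0.0442). It was lost in 11 fits, with adjusted p from 0.05002 to 0.1915: without young replicate 1, 2, 3 or 4, 12-month replicate 2, 3 or 4, 18-month replicate 4 or 5, or 24-month replicate 3 or 4. The keratocyte sums given above fell over the same libraries in which Skil was higher; their part in the result was not tested.

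**Figure D2:**
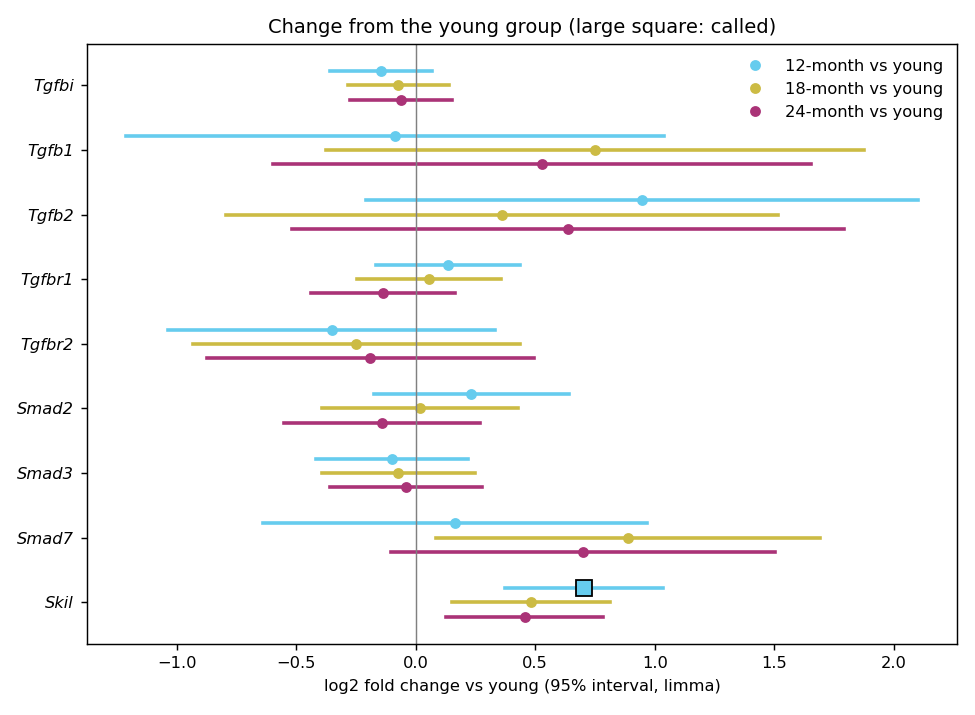
Log2 fold change from the young group at 12, 18 and 24 months for the 9 genes tested, with 95% intervals from limma; the large outlined square marks the call. The interval of Skil is above 0 at each age and only the 12-month change of 0.70 is called, while those of Tgfbi lie within 0.36 of 0.

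Smad7, the inhibitory Smad that ends signalling at the receptor, had higher values in the older libraries but did not pass the test. The young libraries had 28.5, 51.0, 110, 61.5 and 123 normalized counts, and the 12-month libraries 81.8, 31.6, 88.9, 67.1 and 140. The 18-month libraries had 73.2, 126, 159, 123 and 154, and the 24-month libraries 136, 45.5, 150, 105 and 145. Of the 15 aged libraries, 7 were above every young one, 1 of them at 12 months. The log2 change was 0.17 at 12 months (-0.64 to 0.97), 0.89 at 18 months (0.09 to 1.69, limma adjusted p = 0.6143) and 0.70 at 24 months (-0.10 to 1.504, limma adjusted p = 0.5819). A linear trend over the 22 months gave 0.85 (0.09 to 1.62, limma adjusted p = 0.4214). Smad7 lies on chromosome 18.

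Neither signal-carrying Smad was called. Smad3 (chr9:63646766-63757994) had 382, 435, 350, 583 and 407 in young and 312, 442, 400, 390 and 454 at 12 months. It had 355, 478, 380, 384 and 431 at 18 months and 474, 394, 422, 480 and 316 at 24 months. Its log2 change at 24 months was -0.04 (-0.36 to 0.28), and the sign depended on single libraries. Smad2, on chromosome 18, had 416, 231, 299, 237 and 275 in young, 289, 256, 267, 460 and 463 at 12 months, 265, 260, 272, 319 and 335 at 18 months, and 262, 312, 182, 238 and 322 at 24 months. Its groups overlapped, and 2 of the 12-month libraries were above every young one. The log2 change of Smad2 was 0.23 at 12 months (-0.18 to 0.64), 0.02 at 18 months (-0.39 to 0.43) and -0.14 at 24 months (-0.55 to 0.27). From 12 to 24 months it was -0.37 (-0.78 to 0.03, limma adjusted p = 0.3856).

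The receptors overlapped between ages as well. Tgfbr1 (chr4:47353222-47414926), the type I receptor kinase, had 453, 582, 730, 533 and 604 in young, 621, 638, 706, 756 and 469 at 12 months, 550, 716, 503, 610 and 619 at 18 months and 536, 426, 510, 597 and 552 at 24 months. The log2 change at 24 months was -0.14 (-0.44 to 0.16). Tgfbr2 (chr9:116087695-116175363), which binds the ligand first, had 91.0, 112, 99.5, 53.0 and 59.8 in young, 98.3, 55.2, 48.2, 49.1 and 72.6 at 12 months, 75.6, 29.3, 74.6, 98.5 and 82.2 at 18 months and 75.1, 43.9, 55.8, 77.5 and 116 at 24 months. Its log2 change was -0.35, -0.25 and -0.19 at the 3 ages in turn, with an interval at 24 months of -0.87 to 0.49.

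The ligands were the least precisely measured. Tgfb1 (chr7:25687002-25705077), a ligand studied in wound repair, had 13.2, 17.2, 7.31, 14.8 and 7.59 in young, 9.19, 6.58, 4.29, 20.04 and 24.2 at 12 months, 25.6, 34.0, 11.1, 17.0 and 18.4 at 18 months and 15.6, 26.0, 23.6, 8.70 and 16.0 at 24 months. The log2 change at 24 months was 0.53 (-0.60 to 1.65). Tgfb2 (chr1:186622787-186709697) had 32.9, 35.97, 26.5, 54.0 and 5.69 in young, 70.8, 117, 58.9, 17.0 and 35.7 at 12 months, 28.1, 8.21, 42.9, 67.2 and 54.1 at 18 months and 37.0, 38.2, 70.0, 22.6 and 45.2 at 24 months. Its log2 change was 0.95 at 12 months (-0.21 to 2.10) and 0.64 at 24 months (-0.52 to 1.79). An antisense gene, Gm29491, overlaps Tgfb2, and without a statement that strand was used their reads cannot be told apart.

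Tgfb3 (chr12:86056743-86079041) was below the minimum of 10 normalized counts and was not tested across all genes. Its values were 1.096, 11.2, 6.39, 1.06 and 13.3 in young, 0.92, 0, 0, 4.01 and 0 at 12 months, 13.4, 17.6, 0, 0 and 8.70 at 18 months, and 0, 8.94, 1.89, 0 and 0 at 24 months. It had 0 reads in 3 of the 12-month, 2 of the 18-month and 3 of the 24-month libraries, where a count of 0 allows up to 3 reads, and at most 15 reads in any. In 4 of the 5 libraries at 12 months Tgfb3 was below every young library. These 4 had 0 or 1 read, where young replicates 1 and 4 had 1 read each, so that order rests on single reads. Two-sided exact permutation tests against young gave p = 0.05556 at 12 months and p = 0.754 at 18 months, both added after the values were seen, and p = 0.1111 at 24 months, none of them adjusted. Counting alone would give a coefficient of variation of 46.88%, against 134.9% within ages. Its exons overlap Gm37804 and Gm48008 on the other strand.

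**Figure D3:**
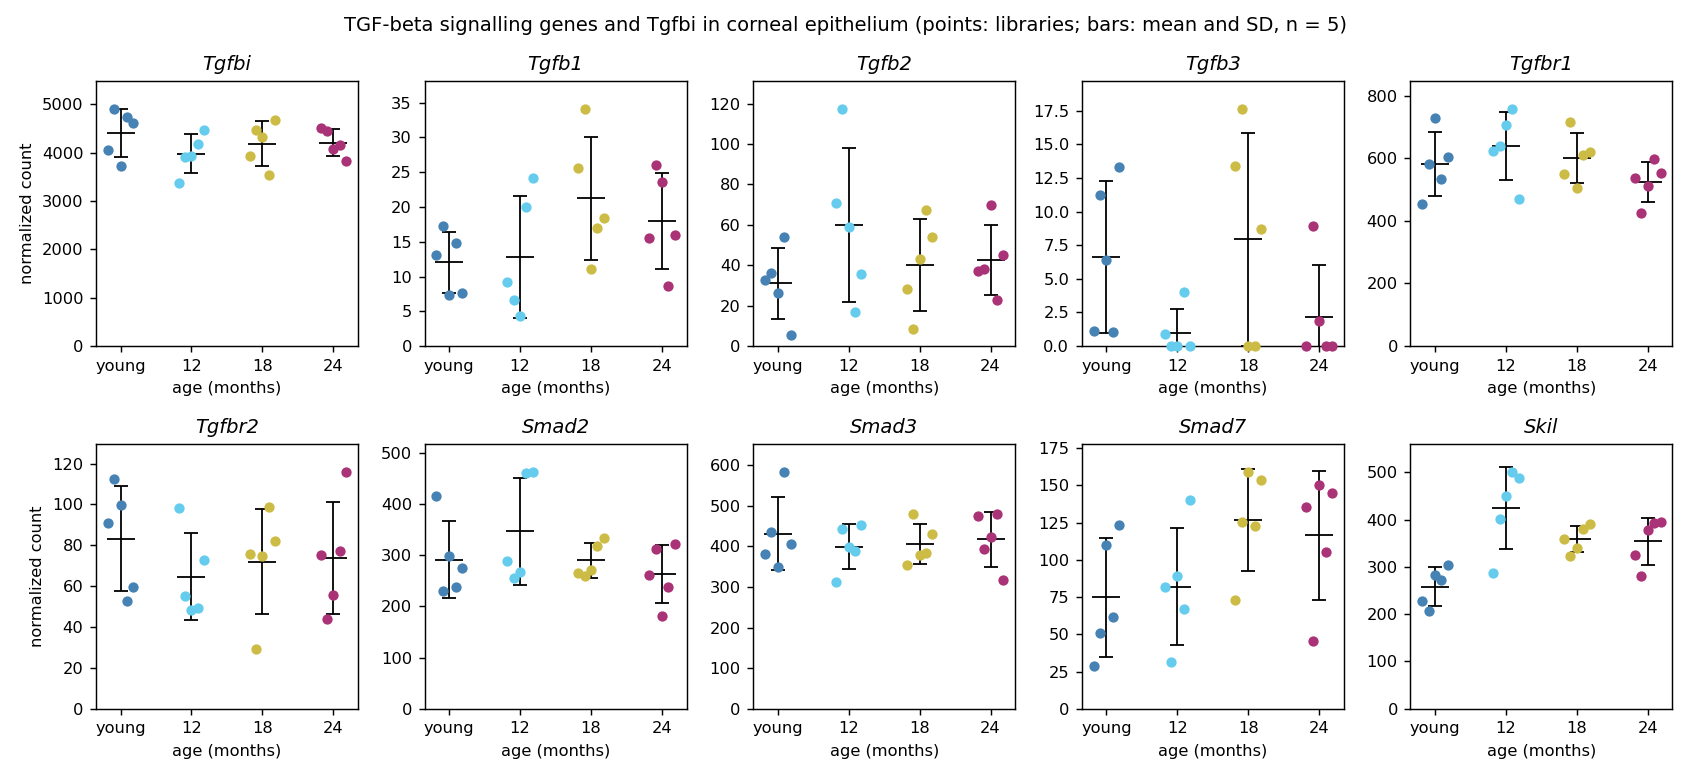
Normalized counts of the 10 genes in each library (points) by age in months, with mean and SD (bars, n = 5), on linear axes from 0. The ages overlap for Tgfbi, Skil is higher in 13 of 15 aged libraries than in any young one, and Tgfb3 has libraries at 0.

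Outside the 12-month comparison and that of all aged libraries, the 9 genes gave no call. At 18 months 0 of 9 were called (2 at an unadjusted p under 0.05), where 0.673% of all genes were called. At 24 months it was 0 of 9 (1 unadjusted), where the share of all genes was 0.78%. Between 24 and 12 months it was 0 of 9 (0 unadjusted) against 0.195%, for any difference among the 4 ages 0 of 9 (1 unadjusted) against 0.904%, and for the linear trend 0 of 9 (2 unadjusted) against 0.718%. Among all 11288 genes tested, an unadjusted p under 0.05 was found for 811 at 18 months and 1125 at 24 months. It was found for 1661 between 24 and 12 months, 1283 for any difference and 1127 for the linear trend. With voom on the recovered reads, the count of the 9 genes called was also 0 in each of these comparisons. The median log2 change of the 9 was -0.04 at 24 months, against 0.01 over all genes tested.

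The wider pathway comprised 85 more genes in 6 lists, of which 61 were tested. At 24 months 4 of the 61 were called, all lower, where 0.78% of all genes were called; the median log2 change of the 61 was -0.03. The 4 were the TGF-beta target genes Col1a1, Col1a2 and Col3a1, fibrillar collagens of the stroma, and Fstl1, a secreted follistatin-like protein. Among the listed target genes, 3 of 18 tested were called at each of the 3 ages, and all 3 are also on the keratocyte marker list. In the branch of bone morphogenetic proteins and activin, 1 of 8 was called at each of the 3 ages. The share of all genes called was 0.532%, 0.673% and 0.78% at 12, 18 and 24 months.

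Col1a1 had a lowest young value of 396.3 and a highest 24-month value of 161.9, and its log2 change was -2.89, -2.85 and -3.74 at 12, 18 and 24 months (limma adjusted p = 1.123e-08 at 24 months). Col1a2 changed by -2.30, -2.34 and -3.09 and Col3a1 by -2.68, -2.85 and -3.31 (limma adjusted p = 0.005019 at 24 months). The calls of Col1a1 and Col1a2 were kept at all 3 ages in each of the 20 fits without 1 library. Col3a1 kept its call in 20 of 20 at 24 months, in 14 at 18 months (lost without young replicate 2, 3 or 5 or 18-month replicate 1, 2 or 3) and in 7 at 12 months, where its adjusted p was 0.04813. The 12-month call was lost without young replicate 1, 2, 3 or 5, 12-month replicate 2, 3, 4 or 5, 18-month replicate 1, 4 or 5, or 24-month replicate 1 or 4, with an adjusted p of up to 0.1558. It was also lost with voom (0.1136), quantile normalization (0.057), no filter (0.09902), a filter at 50 normalized counts (0.05601) and a pseudocount of 0.1 (0.07458). The 18-month call of Col3a1 was lost with voom (0.05186) and with no filter (0.07262). Fstl1 had 179, 236, 248, 90.1 and 146 normalized counts in young and 45.8, 37.4, 19.9, 6.96 and 49.9 at 24 months. It changed by -2.25, -2.41 and -2.64 (limma adjusted p = 0.001552 at 24 months), and each aged library was below each young one. The call of Fstl1 at 12 months was lost without young replicate 2 or 3 (adjusted p = 0.05253 and 0.05102) and kept in the other 18 fits. Of the 13 keratocyte markers tested, 6 were called at 24 months, where 0.78% of all genes were called, and the list median was -2.61. The 6 include Col1a1, Col1a2 and Col3a1 themselves, beside Col5a2, Col6a1 and Dcn, so the list is not independent of these collagens. The part of keratocytes in the fall of Fstl1 was not tested.

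Junb, an AP-1 subunit induced early by TGF-beta, was called for the linear trend alone, at 0.56 over 22 months (limma adjusted p = 0.0447), a call kept in 5 of the 20 fits without 1 library and lost in 15, where the adjusted p reached 0.1929 without young replicate 1. The fits that kept it left out young replicate 3, 12-month replicate 4 or 5, or 18-month replicate 2 or 3. It was also lost with no filter (0.07648) and with a pseudocount of 0.1 (0.05436). Its values were 1346, 1680, 2497, 1950 and 2119 in young and 2481, 2761, 3006, 2783 and 2850 at 24 months, where 1 young library lay within the range of the 24-month group. At 24 months its own log2 change was 0.56 (0.26 to 0.86, limma adjusted p = 0.07733).

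The remaining lists gave no call other than Skil. At 24 months 0.78% of all genes were called, so 0 calls in lists of these sizes is near the share of all genes. For ligands and latency 0 of 9 were called at 24 months (1 unadjusted), and its most abundant genes Itgav, Ltbp4 and Furin had log2 changes of -0.08, -0.18 and -0.03. Among receptors 0 of 11 were called (0 unadjusted), with -0.16 for Bmpr2, -0.18 for Bmpr1a and -0.03 for the co-receptor Tgfbr3. Among Smads 0 of 7 were called (0 unadjusted), with -0.02 for the shared Smad4, 0.02 for Smad5 and 0.12 for Smad1. Of 17 Smad regulators, 0 were called at 24 months (4 unadjusted), with -0.21 for the coactivator Crebbp, 0.21 for Sp1 and 0.06 for the phosphatase Ppm1a. Of the target genes called in no comparison, Tgfbi aside, the 3 most counted were Tgm2 with 0.15, Cdkn1a with 0.14 and Itgb4 with -0.01. The BMP targets Id1, Id2 and Id3 had 0.11, 0.09 and -0.21. With the called genes included, 11 of the 61 had an unadjusted p under 0.05 at 24 months, where 1125 of all 11288 genes tested did. Of the 61, 7 had such a p without being called: Junb, given above, and 6 that are named here after their values were seen. Bhlhe40, a transcriptional repressor, had 0.76 (limma adjusted p = 0.1084), Id4 had 1.08 (0.4252), the feedback gene Pmepa1 0.48 (0.4194) and the ubiquitin ligase Smurf1 0.33 (0.4949). The coactivator Ep300 had -0.25 and Ltbp1, which holds latent TGF-beta in the matrix, -1.61, both with an adjusted p of 0.4466.

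**Figure D4:**
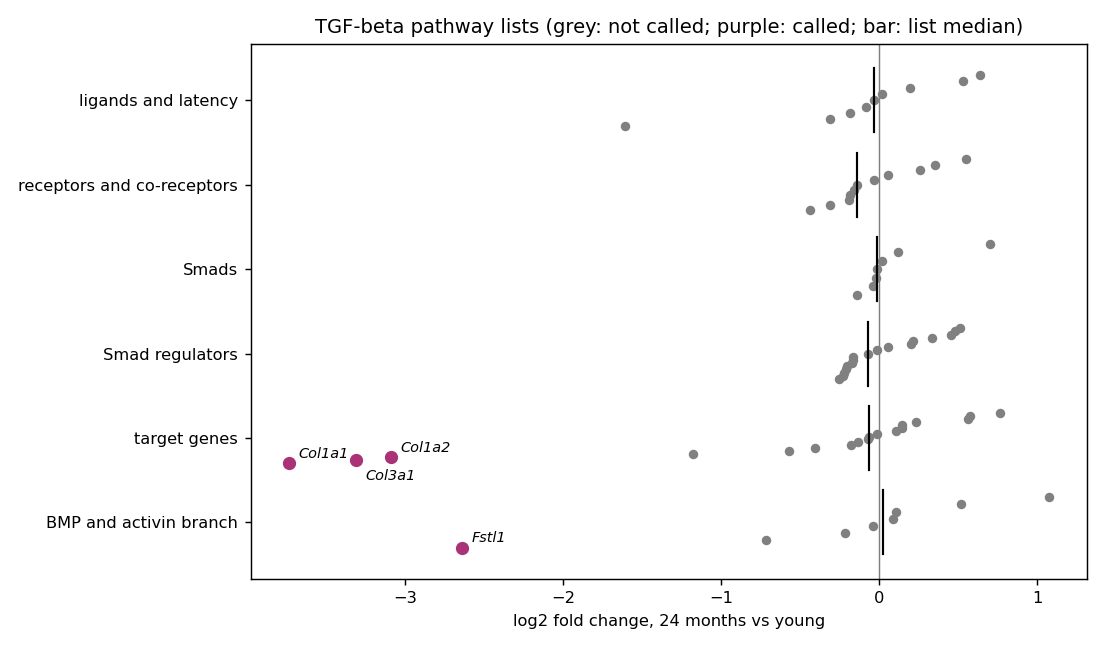
Log2 fold change from young to 24 months for the tested genes of each TGF-beta pathway list (points, grey where not called and purple where called), with the list median as a bar. Col1a1, Col1a2, Col3a1 and Fstl1 stand far to the left, and the list medians lie near 0.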

How the data were processed

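Reads were trimmed by the authors (cutadapt) and mapped to GRCm38 (STAR). The authors took gene counts from HTSeq and scaled them by the relative log expression method of DESeq2. Versions and the use of strand are not given in the sources used here. The deposited tables hold, for each gene and library, log2 of the normalized count plus 1, in 4 tables whose shared values are equal. Fold changes and p-values of the authors' own comparisons in those tables were not used. Multiplying by the size factor gave whole reads for 100% of the values in each library, within 0.01.

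The 11288 genes whose normalized count averaged 10 or more were tested with limma 3.58.1 in R 4.3.3, with 1 fit of the 4 ages and Benjamini-Hochberg adjustment over all genes; all aged against young used 2 groups. Exact permutation tests used scipy 1.17.1. Correlations used numpy 2.4.6, with ranks from scipy and 100000 permutations. Libraries were shuffled across all ages for log2 values and within ages for deviations from the age means. Named pathway genes were those called and the 3 most counted of each list. The genes and lists were chosen with earlier results of these data known. P-values measure the spread between animals. Alternatives were voom, quantile normalization, other filters, thresholds and pseudocounts, the replicate block, a fit of 2 ages and leaving out each library. The fits were tested on simulated data.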

Additional observations from a re-analysis of the deposited data

Results flagged for a closer look

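Tgfb3 gave the 2 flagged results, each a library far from the others of its age. The 12-month replicate 4 had 4.008 normalized counts (4 reads), where the others lay between 0 and 0.9192. The 24-month replicate 2 had 8.944 (11 reads), where the others lay between 0 and 1.892. Of 40 groups tested this way 2 were flagged, and chance flags about 1 in 20 where values are normally spread. Both flagged groups had 3 libraries at 0 reads, where that rate need not hold.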

How the results depend on the processing

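The 12-month count of members called was 1, and 0 with voom and in the fit of the 2 ages; without 1 library it ran from 0 to 1. For all aged libraries the count was 1, 0 at a threshold of 1.5-fold, and 0 to 1 without 1 library. For any difference it was 0, and 0 to 1 without 1 library. The pathway genes called at 12 months numbered 5, 3 with voom and 2 to 5 without 1 library, and the leave-one-out range was 3 to 4 at 18 months, 4 to 5 at 24 months, 3 to 5 for any difference, 4 to 6 for the trend and 4 to 5 for all aged. The log2 change of Smad3 at 24 months ran from -0.1099 to 0.07386 without 1 library, and reversed to 0.07386 without young replicate 4 and to 0.05533 without 24-month replicate 5. The causes were not tested.

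Same-numbered libraries of different ages did not deviate together (30 pairs, median correlation 0.008, range -0.303 to 0.159, 3 over 0.1), so no pairing by number was seen. These correlations over all genes could miss a pairing limited to some genes or numbers. With the replicate block, Skil at 12 months kept its call (adjusted p = 0.01865) and the count of members called was 1. The adjusted p of Skil at 12 months ran from 0.005131 to 0.1802 over all alternatives. Counting alone would give a coefficient of variation of 24.81% for Tgfb1, 15.09% for Tgfb2 and 46.88% for Tgfb3, against 46.24%, 54.46% and 134.9% within ages.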

Other observations

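Over the 20 libraries, as deviations from the age means, 36 pairs among the 9 genes tested were compared, a comparison made after the files were seen. Tgfbi and Smad3 had the highest r, 0.689 (permutation p = 0.0019, adjusted over the 36 pairs 0.0684), with rho = 0.716 (permutation p = 0.00161) and r = 0.688 without the 2 farthest libraries. This fails the correction.

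The 5 genes whose log2 values followed Skil most closely, age differences included and chosen after the values were seen, were Cln3 (r = 0.823), Ier5 (0.79), Hcfc1r1 (0.788), Atp6v1f (0.777) and Tmx1 (0.771), over 20 libraries and 11287 genes. As deviations from the age means, r was 0.792, 0.576, 0.539, 0.636 and 0.639 in the same order. Cln3 and Atp6v1f are lysosomal genes and Ier5 an immediate early response gene.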
